A study of Saccharomyces cerevisiae with 21 samples.

Results

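The chromosome ends of *Saccharomyces cerevisiae* were examined in CC-seq maps of Spo11-linked DNA ends. The ends were taken as the 20 windows of 1 kb that lie nearest to each tip of chromosomes I to XVI, both strands summed, where a tip is position 1 or the largest position listed for that chromosome in any library. This gave 640 windows at 32 ends, out of 12067 windows in the nuclear genome outside the rDNA (5.31%). Reads came from SK1 diploids 6 h into sporulation medium. All 5 strains (MATa/alpha) shared the alleles his4X::LEU2, leu2::hisG, arg4-nsp, ura3, lys2 and ho::LYS2, and all lacked *SAE2*, so that Spo11 stays attached to the ends it makes. The genotypes were *sae2*Δ (sae2Δ::KanMX6, 5 replicates, numbered 1, 2, 3, 5 and 7), *sae2*Δ *ndt80*Δ (with ndt80Δ::LEU2, 4 replicates), *sae2*Δ *tel1*Δ (sae2Δ::KanMX4 and tel1Δ::HphMX4, 4 replicates) and *sae2*Δ *ndt80*Δ *tel1*Δ (ndt80Δ::LEU2 and tel1Δ::HYG, 5 replicates). A control, *sae2*Δ *ndt80*Δ *spo11-Y135F*, carried spo11(Y135F)::KanMX4, whose product cannot cut DNA, and was mapped once. The *SAE2* allele was sae2Δ::KanMX6 in all strains but *sae2*Δ *tel1*Δ. The 4 Spo11-active genotypes also carried nuc1::LEU2, which the control did not. Each genotype was 1 strain, so strain and genotype cannot be told apart. Each culture was started from a single colony, and p-values measure the spread between these libraries, part of which may be technical. Where 4 values follow each other without names, they are in the order in which the genotypes were just given.

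Spo11 makes the double-strand breaks (DSBs) that start meiotic recombination, and it stays covalently bound to each end until nucleases that need Sae2 release it. Tel1, the yeast counterpart of ATM, is a kinase that is recruited to breaks and limits further breaks close by, and Ndt80 is the transcription factor that ends meiotic prophase, so cells without it stay in prophase. Subtelomeres are known as gene-poor regions of few breaks, built from X and Y′ elements and from gene families whose copies recur at many ends, among them *YRF1* (the Y′ helicases), *COS* and *PAU*.

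Values were counts of Read 1 ends, and the total per library ran from 1562673 to 8705712, with 3622725 in the control. Within the 10% to 50% stretch of each deleted gene, *NDT80* held at most 0.0234 times the library's background in *ndt80*Δ libraries and at least 0.918 times in *NDT80* libraries, while *TEL1* held at most 0.0868 times in *tel1*Δ libraries and at least 0.814 times in *TEL1* libraries. Hotspots took 37.3% to 87.0% of the reads of the Spo11-active replicates and 9.51% of those of the control. Background, measured in long genes, was uneven. It exceeded 100 NormHpM per kb in *sae2*Δ *ndt80*Δ replicates 1 and 3 and *sae2*Δ *ndt80*Δ *tel1*Δ replicate 4, against 2.56 in *sae2*Δ *ndt80*Δ *tel1*Δ replicate 5. Some libraries belonged to time-course series, namely those of *sae2*Δ *ndt80*Δ *tel1*Δ cultures 3 to 5 and of replicates 3 and 4 from *sae2*Δ *ndt80*Δ. The *NDT80* genotypes had none. NormHpM is the reads of a region after subtraction of background, per 1000000 of such reads in all hotspots, so every level here is relative to the hotspots of the same library and is not an absolute number of breaks.

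Background weighed heavily at the ends. The reads in the last 20 kb came to between 9539 and 89951 per 1000000 hotspot reads in single replicates, and the share of them that background alone would give was 16.7% to 95.8%. *sae2*Δ *ndt80*Δ *tel1*Δ replicate 5 was lowest and *sae2*Δ *ndt80*Δ replicate 1 highest in both. The plot of end reads against background shows replicates of all genotypes with more end reads where background was higher. In the 580 end windows without a hotspot, the shape of the control map resembled that of the 3 replicates of high background, with Pearson's r across windows of 0.956 (*sae2*Δ *ndt80*Δ replicate 1), 0.934 (*sae2*Δ *ndt80*Δ replicate 3) and 0.960 (*sae2*Δ *ndt80*Δ *tel1*Δ replicate 4). These values describe windows, which are not independent replicates.

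**Figure D1:**
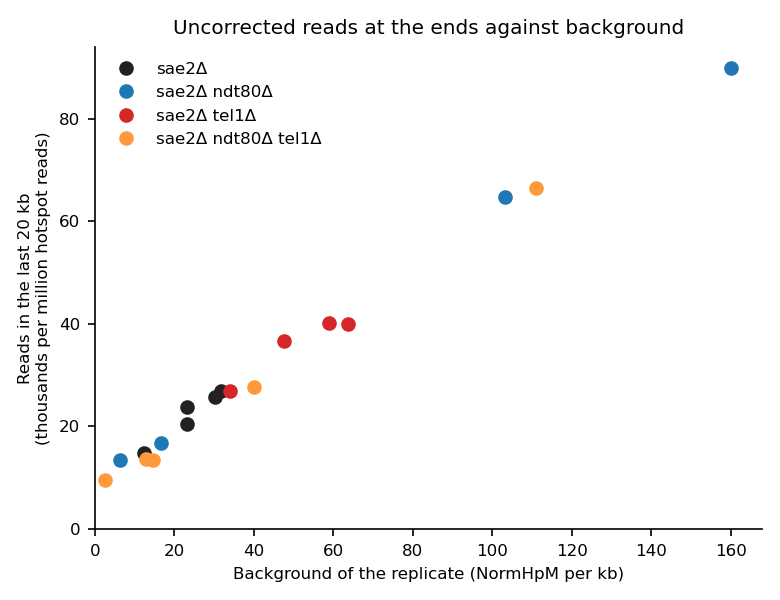
Reads in the last 20 kb of all chromosomes per 1000000 hotspot reads (vertical axis, in units of 1000) against the background of the same replicate (horizontal axis, NormHpM per kb), with 1 point per replicate coloured by genotype. The 3 replicates of high background, all of them *ndt80*Δ, hold the most end reads, up to 89951 per 1000000 in *sae2*Δ *ndt80*Δ replicate 1.

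The control map was used first, as a guide to sequence that is absent, repeated or rich in background. Control reads per kb were divided by the control's own background. Of the 640 end windows, 152 (23.75%) lay under 0.5 times background, 448 (70%) between 0.5 and 2 times, and 40 (6.25%) above 2 times. In the other 11427 windows the shares were 1.88%, 97.7% and 0.376%. The median was 0.939 at the ends and 1.13 elsewhere. No control read was found in 22 end windows, and 15 had no read in any library. Near-empty windows were denser close to the tip, with 49 of the first 96 (3 kb at each end) under 0.5 times background and 103 of the later 544.

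Near-empty and overfull sequence was spread unevenly over the ends, as the heat map of the control shows. At XVI right 17 of 20 windows were under 0.5 times background, at XV left 13, at VII right and X right 10 each, at XII left 9, and at I right and XIV left 8 each. Windows above 2 times background were concentrated at X left (9), III right (8), IX left (7), VIII right (3) and I left (3). The highest control levels were in the fourth kb of X left, over *YJL225C* (6.43 times background), the first kb of IX left, over *YIL177C* (6.01), the first kb of X left (5.99), the eighth kb of VIII right, over *IMD2* (5.39), and the second kb of IX left (4.84). *IMD2* encodes IMP dehydrogenase, and *YIL177C* and *YJL225C* are uncharacterised open reading frames of the outermost sequence.

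**Figure D2:**
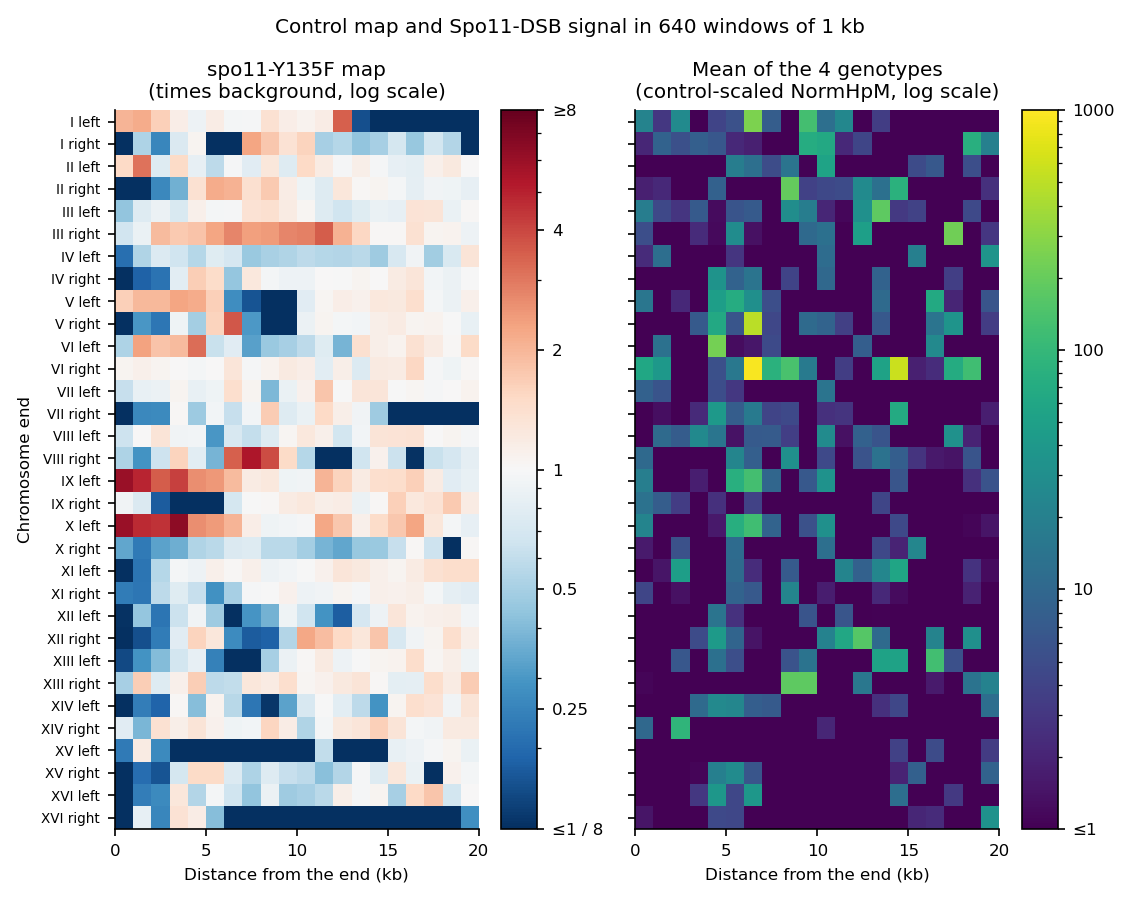
Heat maps of the 32 ends (rows) by distance from the tip in 1 kb windows (columns). One map gives control reads over the control's background and the other the mean control-scaled NormHpM of the 4 Spo11-active genotypes, both on log colour scales. Control-poor windows gather near the tips and at XVI right and XV left, control-rich ones at X left, III right and IX left, and the strongest signal stands at VI right.

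Because background was not flat, 2 versions of NormHpM were computed. The flat version subtracts 1 background level per library, as the methods do. The control-scaled version multiplies that level in each window by the control's ratio, and it was chosen after seeing the data. Values below 0 mean fewer reads than the background expected. Levels below are control-scaled unless they are called flat.

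Signal per kb was low at the ends in all 4 genotypes. In the last 20 kb it was 12.2 ± 1.96 NormHpM per kb among *sae2*Δ replicates (SD, n = 5), 10.8 ± 3.35 among *sae2*Δ *ndt80*Δ replicates (n = 4), 9.25 ± 3.86 among *sae2*Δ *tel1*Δ replicates (n = 4) and 8.32 ± 2.55 among *sae2*Δ *ndt80*Δ *tel1*Δ cultures (n = 5). In the next 20 kb the means were 37.8, 34.4, 32.8 and 27.8, in that order, and beyond 40 kb they were 96.4, 91.7, 95.5 and 98.4. The rise from tip to interior was thus seen in every genotype. The lengths include near-empty windows, and 23.75% of end windows were under 0.5 times background in the control. Distances are those of the Cer3 reference build, while the strains are SK1. The part of absent or unmapped sequence in the low level was not tested. Only 18 end windows (2.81%) exceeded the mean of all windows of the genome, 87.6 NormHpM, against 20.2% of the other windows.

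The share of the last 20 kb was taken as its signal, inside and outside hotspots, in percent of the signal of all hotspots. It is thus a ratio to the hotspot signal and not a part of it. This share was 0.753, 0.724, 0.791, 0.654 and 0.988% in the 5 *sae2*Δ replicates and 0.66, 0.863, 0.577 and 0.268% in the 4 *sae2*Δ *tel1*Δ replicates. It was 0.437, 0.675, 0.691 and 0.961% among *sae2*Δ *ndt80*Δ replicates and 0.451, 0.577, 0.384, 0.454 and 0.797% among *sae2*Δ *ndt80*Δ *tel1*Δ cultures. The genotypes overlapped in all 4 comparisons, though *sae2*Δ *tel1*Δ replicate 4 stood lowest of all. Means were 0.782 ± 0.126%, 0.691 ± 0.214%, 0.592 ± 0.247% and 0.532 ± 0.163% (SD), and with flat background they were 0.741 ± 0.125%, 0.57 ± 0.325%, 0.506 ± 0.262% and 0.471 ± 0.211%. With either background the means were higher with Tel1 than without it, and this order depended on the measure and the libraries. When every nuclear read was taken as the total, rDNA left out and no background subtracted, *NDT80* cells had 1.62% of reads at the ends with Tel1 and 2.14% without it. In *ndt80*Δ cells the flat share was 0.407% with and 0.491% without Tel1 once the time-course libraries were left out, and 0.444% and 0.471% without *sae2*Δ *ndt80*Δ replicate 4. The replicates of the genotypes compared overlapped in these settings too.

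Within the ends the signal peaked between 5 and 10 kb from the tip. The signal of that zone, inside and outside hotspots, equalled 0.361%, 0.375%, 0.352% and 0.319% of the hotspot signal. The outermost 5 kb held 0.12%, 0.121%, 0.0599% and 0.0292%, the zone from 10 to 15 kb 0.198%, 0.159%, 0.136% and 0.132%, and that from 15 to 20 kb 0.103%, 0.0359%, 0.0445% and 0.0528%. The means of the outermost 5 kb were lower in both *tel1*Δ genotypes, where single replicates ran from -0.00139 to 0.146% among *sae2*Δ *tel1*Δ replicates and -0.0224 to 0.0792% among *sae2*Δ *ndt80*Δ *tel1*Δ cultures, against 0.0706 to 0.214% among *sae2*Δ replicates and 0.083 to 0.171% among *sae2*Δ *ndt80*Δ replicates. The signal of 1 end, VI right, by itself equalled 0.176%, 0.185%, 0.273% and 0.213% of the hotspot signal. Without it the shares of the last 20 kb were 0.606%, 0.506%, 0.32% and 0.319%.

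**Figure D3:**
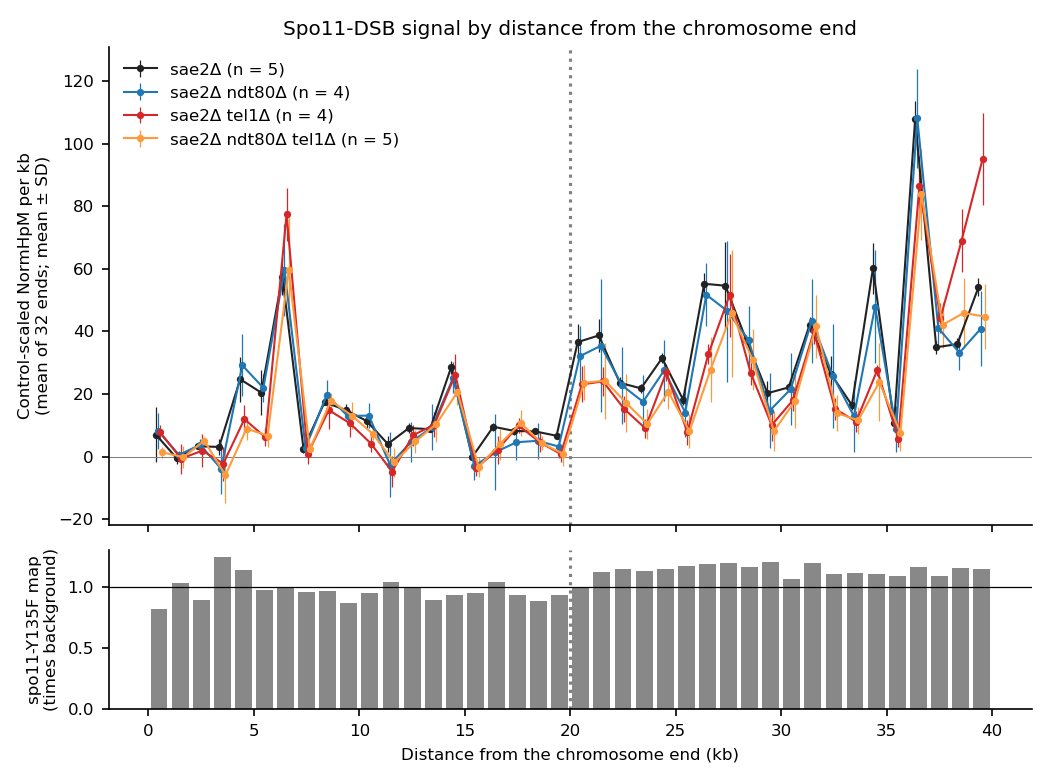
Control-scaled NormHpM per kb against distance from the tip to 40 kb (upper panel, mean and SD between replicates, 1 line per genotype) and control reads over background (lower panel). The last 20 kb average 8.32 to 12.2 NormHpM per kb by genotype, and the next 20 kb 27.8 to 37.8.

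The ends differed widely from each other. VI right, which holds the hexokinase gene *HXK1* and the lyase gene *IRC7*, had 1721, 1868, 1748, 1752 and 1720.5 NormHpM in the *sae2*Δ replicates and 3304, 2615, 2667 and 2314 in the *sae2*Δ *tel1*Δ replicates. Values were 1659.7, 1597, 2233 and 1924 among *sae2*Δ *ndt80*Δ replicates and 1966, 1633, 1873, 2922 and 2273 among *sae2*Δ *ndt80*Δ *tel1*Δ cultures. Every *sae2*Δ *tel1*Δ replicate was above every *sae2*Δ replicate, while the pairs that differ in Ndt80 overlapped. This end made up 32.6% of the signal of all 32. The log2 ratio with over without Tel1 (± SE, from all reads, p adjusted by Benjamini-Hochberg over 612 bins of 20 kb in edgeR) was -0.71 ± 0.23 (adjusted p = 0.0183) in *NDT80* cells and 0.16 ± 0.23 (adjusted p = 0.567) in *ndt80*Δ cells. With library background subtracted from the counts they were -0.64 (adjusted p = 0.00121) and -0.16 (adjusted p = 0.389). The call in *NDT80* cells missed the threshold without *sae2*Δ replicate 2 (adjusted p = 0.0503), *sae2*Δ *tel1*Δ replicate 1 (0.0776) or *sae2*Δ *tel1*Δ replicate 3 (0.0565).

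The next ends by control-scaled signal, averaged over the 4 genotypes, were V right (639 NormHpM), I left (466), XII right (351) and XIII right (338). At I left the means were 258 ± 63.0 among *sae2*Δ replicates, 378 ± 243 among *sae2*Δ *ndt80*Δ replicates, 553 ± 147 among *sae2*Δ *tel1*Δ replicates and 674 ± 287 among *sae2*Δ *ndt80*Δ *tel1*Δ cultures, and at XII right 461 ± 118, 479 ± 197, 306 ± 45.8 and 158 ± 74.8. I left was thus higher on average without Tel1 and XII right with it, and neither passed the test. The weakest ends were IX right (-106), VII left (-37.5) and XII left (-31.5), which are not above background. By flat NormHpM the strongest were VI right (2185), X left (1300.0) and IX left (1189.6), and the weakest XVI right (-692), XV left (-594) and X right (-415). The extremes other than VI right were thus the ends that the control map marks as overfull or near-empty.

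**Figure D4:**
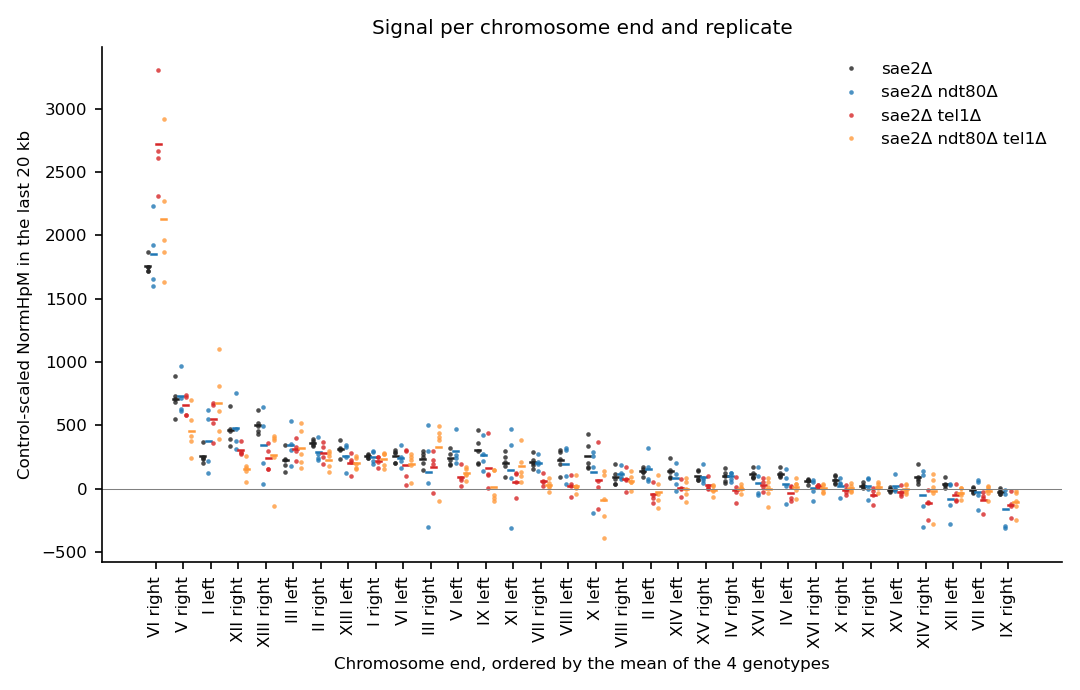
Control-scaled NormHpM of the last 20 kb at each of the 32 ends (horizontal axis, ordered by mean), with 1 dot per replicate coloured by genotype. VI right stands apart at a mean of 2118, V right follows at 639, and the ends at the right lie at or below 0.

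With all libraries, few ends were called. No end passed the test for Ndt80 in *TEL1* cells (0% of all bins), or in *tel1*Δ cells (6.05% of all bins). For Tel1 in *NDT80* cells 1 of 32 ends was called, VI right (13.9% of all bins), and in *ndt80*Δ cells 2 (12.4%), IX left and X left. The latter were at 1.03 ± 0.36 (adjusted p = 0.0426) and 1.05 ± 0.35 (adjusted p = 0.0323), and they were also the ends called for the difference in the Ndt80 ratio between *tel1*Δ and *TEL1* cells (4.58% of all bins), at 1.80 ± 0.51 (adjusted p = 0.018) and 1.84 ± 0.49 (adjusted p = 0.0159). Their control levels are 2.10 and 2.32 times background. With library background subtracted, no call was left at either end (adjusted p = 0.134 and 0.123 for Tel1, 0.18 and 0.161 for the difference). Other ends, not named here, were called in that run for Tel1 in *ndt80*Δ cells. Without the 3 replicates of high background the Tel1 ratios of IX left and X left were -0.06 and -0.05, and without *sae2*Δ *ndt80*Δ replicate 1 alone 0.36 and 0.35. On leaving out replicate 4 of *sae2*Δ *ndt80*Δ *tel1*Δ, 14 ends were called for Ndt80 in *tel1*Δ cells (32.5% of all bins), 29 for Tel1 in *ndt80*Δ cells (60.6%) and 32 for the difference (66%), and on leaving out replicate 4 of *sae2*Δ *ndt80*Δ, 17 for Ndt80 in *TEL1* cells (61.1%). Counts of called ends thus rest on single libraries. Without the 3 replicates of high background, all 32 ends were called for Ndt80 in *tel1*Δ cells (67.2% of all bins). Without the time-course libraries the counts were 30 for Ndt80 in *TEL1* cells (79.6%) and 28 in *tel1*Δ cells (48.5%), 5 for Tel1 in *NDT80* cells (28.9%) and 32 in *ndt80*Δ cells (69%), and 32 for the difference (74.5%).

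Single windows were then tested. Of the 601 end windows with enough reads to test, none was called for Ndt80 in *TEL1* cells (0.242% of all windows tested) or in *tel1*Δ cells (3.36%). Unadjusted p fell under 0.05 in 81 and 9 of them, and DESeq2 called 0 and 16. For Tel1 in *NDT80* cells 9 were called, 1 higher and 8 lower with Tel1 (7.07% of all windows, 2.78% higher and 4.29% lower), and in *ndt80*Δ cells 11, all higher (5.81%, with 4.47% higher). The difference in the Ndt80 ratio gave none (0.0584%, 83 at unadjusted p under 0.05, DESeq2 0). On leaving out replicate 4 of *sae2*Δ *ndt80*Δ *tel1*Δ, the 11 became 129 (16.3% of all windows) and the difference was called in 501 (76.3%), and on leaving out replicate 4 of *sae2*Δ *ndt80*Δ, 37 were called for Ndt80 in *TEL1* cells (2.9%). Without the time-course libraries the counts were 489 for Ndt80 in *TEL1* cells (80.3% of all windows) and 473 in *tel1*Δ cells (67.9%), 61 for Tel1 in *NDT80* cells (16.4%) and 550 in *ndt80*Δ cells (79.6%), and 571 for the difference (87.4%). Without those libraries most windows of the genome were thus called, inside and outside the ends, in each comparison but that of Tel1 in *NDT80* cells. In the fit with all libraries, median log2 ratios were -1.37 over end windows and -1.23 over all for Ndt80 in *TEL1* cells and 0.53 and 0.47 in *tel1*Δ cells. For Tel1 they were -0.93 and -0.91 in *NDT80* cells and 0.99 and 0.85 in *ndt80*Δ cells. Library background enters these counts. With it subtracted, 299 end windows could be tested, and 0 were called for Ndt80 in *TEL1* cells (0.0242% of all windows, 22 at unadjusted p under 0.05), 12 in *tel1*Δ cells (14.3%), 25 for Tel1 in *NDT80* cells (20.3%, 16 higher and 9 lower), 28 in *ndt80*Δ cells (19.1%, 25 higher and 3 lower) and 0 for the difference in the Ndt80 ratio (0.652%).

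Of the called windows with at least 40 flat NormHpM and replicates that did not overlap, those with the largest ratios were named, up to 3 in each direction. In *NDT80* cells the one higher with Tel1 was the eleventh kb of II left, over *MIX23* and *SRO77* (0.98 ± 0.31, adjusted p = 0.0422). *MIX23* encodes a protein of the mitochondrial intermembrane space and *SRO77* a factor of exocytosis. Lower with Tel1 were the seventh kb of I left (-1.35 ± 0.24, adjusted p = 5.41e-05), the tenth kb of I left, over the putative permease gene *SEO1* (-1.16 ± 0.26, adjusted p = 0.00114), and the eighth kb of VI right (-1.12 ± 0.32, adjusted p = 0.0163). In *ndt80*Δ cells those higher with Tel1 were the fifth kb of V right, over *YRF1-2* (1.85 ± 0.41, adjusted p = 0.00129), the eleventh kb of II left again (1.66 ± 0.31, adjusted p = 0.000116) and the twelfth kb of XII right, over *YLR462W* and *YLR464W* (1.58 ± 0.34, adjusted p = 0.00102). With TMM factors in place of hotspot reads as library size all of these missed the threshold. With DESeq2 those in *NDT80* cells at both I left windows and the eighth kb of VI right were lost (adjusted p = 0.732, 0.821 and 0.704), as were those in *ndt80*Δ cells at II left (0.177) and XII right (0.0774). DESeq2 also set its own library sizes, so this is not a check apart from that with TMM factors. At the seventh kb of I left the ratio was -0.50 with DESeq2 and -0.51 with TMM factors. With only the 2 genotypes compared, V right was lost (adjusted p = 0.156). The call at II left in *NDT80* cells was also lost on leaving out any 1 of the *sae2*Δ or *sae2*Δ *tel1*Δ replicates or *sae2*Δ *ndt80*Δ replicate 3 (adjusted p from 0.0555 to 0.200), and that at VI right without *sae2*Δ replicate 2 or *sae2*Δ *tel1*Δ replicate 1 or 4.

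The strongest windows by flat NormHpM were the seventh kb of VI right (955 on average, 942 control-scaled), the seventh kb of V right over *YER188C-A* (612 and 491) and the fifteenth kb of VI right (588 and 578). They were followed by the fifth kb of VI left (341 and 239) and the seventh kb of I left (255 and 258). The first kb of X left (251 and 22.4), the first kb of IX left (249 and 19.3) and the fourth kb of X left (203 and -46.0) ranked high only before the control was taken into account. The ninth kb of II right, over the maltose permease gene *MAL31* (229.9 and 197), and the eighteenth kb of III right (227 and 225) kept their level.

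Hotspots, short regions where Spo11-linked ends concentrate, were described next, a level that was added after the data had been seen. Of the 3291 hotspots called on the averages of both *ndt80*Δ genotypes, 55 (1.67%) had their midpoint in the last 20 kb, which is 8.59 per 100 kb against 28.3 elsewhere. They were found at 22 ends, and 10 ends had none. Their median strength was 48.2 NormHpM, against 112 for the others, 1 was among the strongest 10% and 4 exceeded the mean hotspot. In the control 20 of the 55 (36.4%) were above 2 times background, against 5.59% of the others. An annotated gene was overlapped, at any base, by 22 of the 55 (40%), against 30.8% of the others. Hotspots were called on the *ndt80*Δ averages, so one found in only 1 of the 2 had to differ between them, and the *ndt80*Δ comparison of Tel1 is given for description. The *NDT80* libraries took no part in the calling. The calling thus favoured hotspots that are higher without Ndt80, and the comparisons of Ndt80 are also given for description.

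At these hotspots the counts were as follows. Log2 ratios at hotspots were fitted to all reads with background left in, while the levels given beside them are control-scaled. A ratio can thus differ from the one those levels would give. For Tel1 in *NDT80* cells 20 of 55 were called, 12 higher and 8 lower with Tel1 (43.8% of all hotspots, 27.4% higher and 16.4% lower), and in *ndt80*Δ cells 26, 21 higher and 5 lower (42.9%, 29.3% and 13.6%). For Ndt80 in *tel1*Δ cells 9 were called, 4 higher and 5 lower with Ndt80 (30.7%, 10.8% and 19.8%). In *TEL1* cells none was called for Ndt80 (0.0304%, 9 at unadjusted p under 0.05, DESeq2 1), nor for the difference between the Ndt80 ratios (2.64%, 5 at unadjusted p under 0.05, DESeq2 1). Without the time-course libraries Ndt80 gave 13 calls in *TEL1* cells (14.1% of all hotspots) and 35 in *tel1*Δ cells (60.4%), Tel1 39 in *NDT80* cells (68.7%) and 37 in *ndt80*Δ cells (58%), and the difference 26 (37.9%). In the fit with all libraries, median log2 ratios over the 55 and over all hotspots were -0.04 and 0.11 for Tel1 in *NDT80* cells and 0.54 and 0.17 in *ndt80*Δ cells. For Ndt80 they were 0.12 and -0.09 in *tel1*Δ cells and -0.30 and -0.14 in *TEL1* cells.

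The first group higher with Tel1 lay in *YRF1* genes and like open reading frames. Those in the 4 *YRF1* genes lay about 5 kb from the tip. *YRF1-2* at V right (hotspot at 571818 to 571969 on chromosome V, in SacCer3H4L2 coordinates, as for all positions here) had 101, 77.5, 84.9, 42.5 and 106 NormHpM among *sae2*Δ replicates and 12.4, 19.8, 9.93 and 16.6 among *sae2*Δ *tel1*Δ replicates. It had 88.2, 67.8, 89.0 and 145 among *sae2*Δ *ndt80*Δ replicates and 17.4, 18.2, 12.9, 25.9 and 28.0 among *sae2*Δ *ndt80*Δ *tel1*Δ cultures. All replicates with Tel1 were above all those without it, in both backgrounds. The log2 ratio was 1.83 ± 0.29 (adjusted p = 5.65e-05) in *NDT80* cells and 1.98 ± 0.28 (adjusted p = 2.09e-05) in *ndt80*Δ cells. Ratios of like size were measured at *YRF1-3* on VII right (1.72 ± 0.32, adjusted p = 0.000286, and 1.81 ± 0.31, adjusted p = 0.000142), *YRF1-6* on XIV left (1.53 ± 0.35, adjusted p = 0.00147, and 1.87 ± 0.34, adjusted p = 0.000231) and *YRF1-7* on XVI left (1.75 ± 0.35, adjusted p = 0.000464, and 1.68 ± 0.33, adjusted p = 0.000543). Replicates did not overlap in any of these 8 comparisons. The control stood at 1.32 to 1.90 times background in the 4 hotspots.

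At 5 further hotspots in related sequence the open reading frames are uncharacterised. At *YHL049C*, 3.80 kb from the tip of VIII left, means were 70.2 NormHpM among *sae2*Δ replicates, 36.0 among *sae2*Δ *ndt80*Δ replicates, 2.96 among *sae2*Δ *tel1*Δ replicates and 7.27 among *sae2*Δ *ndt80*Δ *tel1*Δ cultures, and the log2 ratio was 1.93 ± 0.29 (adjusted p = 2.43e-05) in *NDT80* cells and 1.6 ± 0.27 (adjusted p = 0.000136) in *ndt80*Δ cells. Ratios were 1.06 and 1.67 at *YEL076C* on V left (adjusted p = 0.0119 and 0.000346) and 1.08 and 1.73 at *YLR462W* and *YLR464W* on XII right (adjusted p = 0.0162 and 0.000512). At *YIL177C* (5.48 kb from the tip of IX left) and *YJL225C* (5.47 kb, X left) the *ndt80*Δ ratios of 1.62 and 1.55 passed, while those in *NDT80* cells, 0.76 (adjusted p = 0.0696) and 0.71 (0.106), did not. Without *sae2*Δ *tel1*Δ replicate 1 the call at XII right in *NDT80* cells was lost (adjusted p = 0.0592).

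These 9 hotspots are not independent of each other. *YRF1* genes are near-identical copies, and which copy the authors' alignment gave a read to is not known, so a change in 1 copy could appear in several. In all 9, *sae2*Δ replicate 5 was the lowest and replicate 7 the highest of the *sae2*Δ replicates. All 8 annotated *YRF1* genes lie in the ends, where they touch 50 windows, 27 of them under 0.5 times background in the control, and 4 of the genes carried a hotspot.

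Other hotspots higher with Tel1 lay outside the *YRF1* genes and the related open reading frames. Repeated sequence was not screened at any hotspot, so reads from copies elsewhere could enter the values here too. By the ratio fitted to all reads, the largest of the 55 in *NDT80* cells was at *MIX23* on II left, 10.6 kb from the tip (10542 to 10718 on chromosome II). There *sae2*Δ replicates had 68.5, 96.6, 95.5, 109 and 94.8 NormHpM and *sae2*Δ *tel1*Δ replicates 8.97, 7.93, 7.94 and 0.377. Values were 86.7, 94.5, 129 and 198 among *sae2*Δ *ndt80*Δ replicates and 22.6, 20.7, 23.6, 5.51 and 56.6 among *sae2*Δ *ndt80*Δ *tel1*Δ cultures. Every replicate with Tel1 was above every replicate without it. The log2 ratio with over without Tel1 was 2.33 ± 0.26 (adjusted p = 1.17e-06) and 2.00 ± 0.24 (adjusted p = 4.70e-06) in *NDT80* and *ndt80*Δ cells. Both calls held in every alternative in which they were fitted, and the ratio ran from 2.27 to 2.41 in *NDT80* cells when replicates were left out in turn. For Ndt80 in *tel1*Δ cells it was -0.84 ± 0.26 (adjusted p = 0.0171), which was lost without *sae2*Δ *tel1*Δ replicate 1 or 4 or *sae2*Δ *ndt80*Δ *tel1*Δ replicate 5, with the library series as a block (-0.38, adjusted p = 0.143) and without the time-course libraries (-0.39, adjusted p = 0.0822). The time-course series held only *ndt80*Δ libraries, so it overlaps with the Ndt80 genotype.

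Between the maltose permease gene *MAL11* and the maltase gene *MAL12* on VII right, 14.5 kb from the tip, the values were 79.9, 86.5, 83.5, 67.1 and 89.4 NormHpM among *sae2*Δ replicates and 28.3, 38.0, 44.3 and 26.0 among *sae2*Δ *tel1*Δ replicates. They were 34.8, 44.3, 85.0 and 167 among *sae2*Δ *ndt80*Δ replicates and 25.9, 21.5, 21.3, 33.6 and 44.7 among *sae2*Δ *ndt80*Δ *tel1*Δ cultures. The replicates with and without Tel1 did not overlap in *NDT80* cells and overlapped in *ndt80*Δ cells. The log2 ratio was 1.12 ± 0.33 (adjusted p = 0.00901) and 1.43 ± 0.32 (adjusted p = 0.00136). A like ratio was found at *YPR195C* on XVI right, 19.9 kb from the tip, with means of 24.5, 22.6, 7.92 and 9.55 (1.32 ± 0.31, adjusted p = 0.00196, and 1.16 ± 0.30, adjusted p = 0.00426). *YPR195C* sits at an end where 17 windows are nearly empty in the control, but the control stood at 0.871 times background in this hotspot.

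Between the alcohol dehydrogenase gene *ADH7* and the zinc cluster factor gene *RDS1* on III right, means were 42.9 ± 6.34 NormHpM among *sae2*Δ replicates, 80.9 ± 56.6 among *sae2*Δ *ndt80*Δ replicates, 4.13 ± 2.98 among *sae2*Δ *tel1*Δ replicates and 31.2 ± 20.2 among *sae2*Δ *ndt80*Δ *tel1*Δ cultures. From all reads, the log2 ratio for Tel1 was 1.08 ± 0.32 (adjusted p = 0.0097) and 1.23 ± 0.30 (adjusted p = 0.00289). The control held 2.49 times background in this sequence. A smaller hotspot within *ADH7* was called only in *ndt80*Δ cells (1.52 ± 0.40, adjusted p = 0.00482), and the difference between backgrounds was not called.

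The hotspot between the low-affinity iron transporter gene *FET4* and *YMR320W*, 9.0 kb from the tip of XIII right, was among the strongest of the ends. It had 349.5, 388, 294, 492 and 363 NormHpM among *sae2*Δ replicates and 281, 292, 272 and 244 among *sae2*Δ *tel1*Δ replicates. It had 477, 499, 309 and 331 among *sae2*Δ *ndt80*Δ replicates and 301, 305, 281, 199 and 264 among *sae2*Δ *ndt80*Δ *tel1*Δ cultures. Replicates with Tel1 were above those without it, with ratios smaller than at the hotspots above. They were 0.39 ± 0.15 (adjusted p = 0.0475) and 0.57 ± 0.15 (adjusted p = 0.00557). The *NDT80* call was lost on leaving out any *sae2*Δ *tel1*Δ replicate, *sae2*Δ replicate 1, 2, 5 or 7 or *sae2*Δ *ndt80*Δ *tel1*Δ replicate 1, 2 or 3, and both calls were lost with TMM factors or DESeq2.

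In *ndt80*Δ cells 7 more hotspots were called higher with Tel1. They lay in *COS9*, of the *COS* family of membrane proteins, on XI left (1.03, adjusted p = 0.0477) and between *AAD6* and the amino acid permease gene *AGP3* on VI left (1.04, adjusted p = 0.0172). Others were near *DIA1* on XIII right (0.78, adjusted p = 0.0116), between *YJL225C* and *PAU1* on X left (0.65, adjusted p = 0.0294), at *MAL31* and *MAL32* on II right (0.56, adjusted p = 0.0332), between *MSC1* and *RSC9* on XIII left (0.54, adjusted p = 0.0436) and within *ADH7* as above. Of these, the calls at *COS9*, *MSC1* and *RSC9*, and *MAL31* and *MAL32* were each lost on leaving out *sae2*Δ *ndt80*Δ replicate 3 or *sae2*Δ *ndt80*Δ *tel1*Δ replicate 1, 2 or 3. Those at *COS9* and *MAL31* were also lost without *sae2*Δ *ndt80*Δ replicate 4, that at *MSC1* without *sae2*Δ *ndt80*Δ replicate 2 or when *sae2*Δ *ndt80*Δ *tel1*Δ lacked its replicate 5, and those at *COS9* and *MSC1* on leaving out any *sae2*Δ *tel1*Δ replicate and most *sae2*Δ replicates. Without the time-course libraries the ratios at *MAL31* (0.21, adjusted p = 0.308) and *MSC1* (0.40, adjusted p = 0.0734) were not called. The call at *AAD6* was lost without *sae2*Δ *ndt80*Δ replicate 4. At *YJL225C* and *PAU1* the call was lost without *sae2*Δ *ndt80*Δ replicate 1, 3 or 4 or *sae2*Δ *ndt80*Δ *tel1*Δ replicate 1, 2 or 3.

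Hotspots lower with Tel1 clustered on VI right, between *YFR054C* and *IRC7*. At 7.02 kb from the tip (262848 to 263412 on chromosome VI), the level was 161, 173, 190.2, 165 and 175 NormHpM among *sae2*Δ replicates and 398, 344, 349 and 360.1 among *sae2*Δ *tel1*Δ replicates. It was 177, 156, 202 and 247 among *sae2*Δ *ndt80*Δ replicates and 249, 235, 265, 353 and 378 among *sae2*Δ *ndt80*Δ *tel1*Δ cultures. All *sae2*Δ *tel1*Δ replicates were above all *sae2*Δ replicates, and the *ndt80*Δ genotypes overlapped. The log2 ratio was -1.03 ± 0.16 (adjusted p = 3.56e-05) in *NDT80* cells and -0.43 ± 0.16 (adjusted p = 0.0353) in *ndt80*Δ cells, and the second was lost without *sae2*Δ *ndt80*Δ replicate 2 or *sae2*Δ *ndt80*Δ *tel1*Δ replicate 4 or 5 and without the time-course libraries (-0.26, adjusted p = 0.165). The neighbour at 6.27 kb, the strongest hotspot of all ends, had means of 575 ± 40.7, 626 ± 201.5, 902 ± 84.7 and 712 ± 291 (-0.63 ± 0.21, adjusted p = 0.0227, in *NDT80* cells, lost without *sae2*Δ replicate 1 or *sae2*Δ *tel1*Δ replicate 1). At 8.96 kb the ratio was -0.76 ± 0.23 (adjusted p = 0.012). At 0.0845 kb, beside *YFR057W*, it was -1.65 ± 0.45 (adjusted p = 0.00616), and it was lost without *sae2*Δ *tel1*Δ replicate 1 (adjusted p = 0.0549).

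The left end of chromosome I held 2 further hotspots of this kind, on either side of *SEO1*. Between *SEO1* and *YAL065C*, 9.38 kb from the tip, *sae2*Δ replicates had 49.8, 67.9, 45.3, 62.7 and 81.2 NormHpM and *sae2*Δ *tel1*Δ replicates 107, 159, 183 and 105. Values were 34.3, 38.5, 85.1 and 94.3 among *sae2*Δ *ndt80*Δ replicates and 119, 104, 143, 153 and 231 among *sae2*Δ *ndt80*Δ *tel1*Δ cultures. Replicates with and without Tel1 did not overlap in either background. The log2 ratio was -1.12 ± 0.26 (adjusted p = 0.00168) and -0.95 ± 0.26 (adjusted p = 0.00671). On the other side, 6.44 kb from the tip, means were 115 ± 17, 194 ± 134, 291 ± 64 and 281 ± 149.6, with ratios of -1.30 ± 0.36 (adjusted p = 0.00718) and -0.49 ± 0.36 (adjusted p = 0.291). These calls in *NDT80* cells rest on the choice of library size. With all nuclear reads in place of hotspot reads, adjusted p was 0.0523 and 0.0784 at these 2 hotspots, 0.331 and 0.269 at 6.27 and 8.96 kb of VI right, and the call at 7.02 kb stayed.

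On chromosome III, the hotspot between *GIT1*, a glycerophosphoinositol permease gene, and *YCR099C*, 17.4 kb from the right tip, had 86.5, 123, 82.9, 177 and 134 NormHpM among *sae2*Δ replicates and 218, 207, 244 and 237 among *sae2*Δ *tel1*Δ replicates. It had 180.1, 172, 115 and 96.7 among *sae2*Δ *ndt80*Δ replicates and 278, 314, 402, 178 and 179.7 among *sae2*Δ *ndt80*Δ *tel1*Δ cultures. The groups did not overlap in *NDT80* cells and overlapped in *ndt80*Δ cells. The ratio was -0.89 ± 0.25 (adjusted p = 0.00667) and -0.79 ± 0.25 (adjusted p = 0.0151), and the second was lost without *sae2*Δ *ndt80*Δ replicate 4 or *sae2*Δ *ndt80*Δ *tel1*Δ replicate 3. In *HMLALPHA1*, in the silent mating-type cassette of the left arm, means were 78.7 ± 13.7, 99.6 ± 42.1, 166 ± 18.7 and 113 ± 64.5, and the ratio was -1.04 ± 0.31 (adjusted p = 0.011) in *NDT80* cells and -0.17 ± 0.31 (adjusted p = 0.69) in *ndt80*Δ cells. How the alignment placed reads that match sequence elsewhere is not known, so these reads may not all come from the silent cassette. With nuclear reads as library size the *NDT80* calls at *GIT1* and *HMLALPHA1* were lost (adjusted p = 0.117 and 0.134). In *ndt80*Δ cells 2 more hotspots were called lower with Tel1, and the difference from *NDT80* cells was called at neither. They lay between *GEX1* (a glutathione exchanger) and *VBA3* (a vacuolar amino acid permease) on III left (-0.96 ± 0.26, adjusted p = 0.00671) and between *PAU16* and *YKL222C* on XI left (-0.75 ± 0.28, adjusted p = 0.0383). The latter was lost on leaving out *sae2*Δ *ndt80*Δ replicate 2 or 3 or *sae2*Δ *ndt80*Δ *tel1*Δ replicate 1 or 3.

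**Figure D5:**
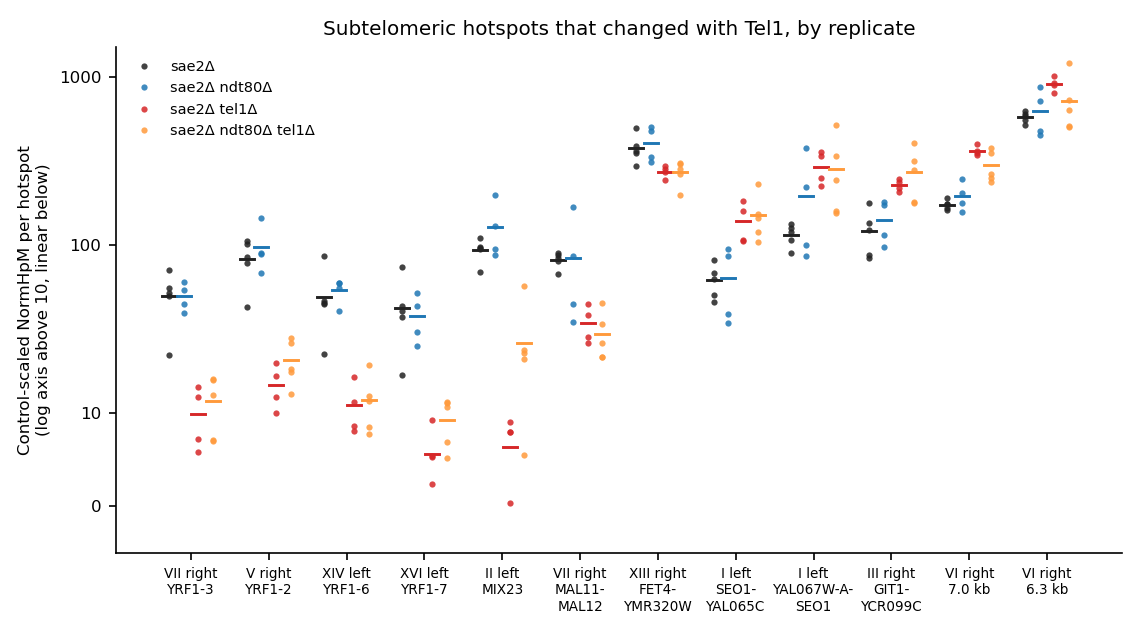
Control-scaled NormHpM (vertical axis, linear near 0 and log beyond) of 12 hotspots in the last 20 kb, with 1 dot per replicate and a bar at the mean of each of the 4 genotypes. Values at the *YRF1* genes and *MIX23* are lower in both *tel1*Δ genotypes, and those at 7.02 kb of VI right and beside *SEO1* are higher among *sae2*Δ *tel1*Δ replicates than among *sae2*Δ replicates.

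The 9 hotspots called for Ndt80 were called in *tel1*Δ cells, and the difference from *TEL1* cells was itself called at none of them. Because hotspots were defined in *ndt80*Δ libraries only, ratios lower with Ndt80 were favoured by that choice. The largest ratio was lower with Ndt80, between *PAU16* and *YKL222C*, 2.70 kb from the tip of XI left. It had 16.9, 17.4, 12.1 and 12.6 NormHpM among *sae2*Δ *tel1*Δ replicates and 59.1, 47.5, 81.8, 27.7 and 59.9 among *sae2*Δ *ndt80*Δ *tel1*Δ cultures. These did not overlap. It had 13.2, 18.9, 7.85, 12.1 and 16.7 among *sae2*Δ replicates and 33.6, 20.9, 6.72 and 50.2 among *sae2*Δ *ndt80*Δ replicates. The ratio with over without Ndt80 was -1.53 ± 0.30 (adjusted p = 0.000739) in *tel1*Δ cells and -1.06 ± 0.29 (adjusted p = 0.116) in *TEL1* cells. *PAU16* belongs to the seripauperins, a family of cell-wall mannoprotein genes.

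The hotspot between *GEX1* and *VBA3* had 11.7, 18.2, 9.21 and 11.6 NormHpM among *sae2*Δ *tel1*Δ replicates and 35.1, 36.6, 61.7, 31.3 and 28.1 among *sae2*Δ *ndt80*Δ *tel1*Δ cultures, with no overlap. The *TEL1* genotypes had 15.7, 13.0, 13.0, 15.1 and 13.4 among *sae2*Δ replicates and 12.2, 9.14, 10.6 and 21.3 among *sae2*Δ *ndt80*Δ replicates. The ratio was -1.14 ± 0.27 (adjusted p = 0.00323) in *tel1*Δ cells and -0.34 ± 0.27 (adjusted p = 0.5) in *TEL1* cells. *sae2*Δ *ndt80*Δ *tel1*Δ was thus the genotype in which it was highest. Also lower with Ndt80 in *tel1*Δ cells were *MIX23*, as above, the hotspot between *ADH7* and *RDS1* (-0.86, adjusted p = 0.0445) and that at *YNR075C-A* between *COS10* and *PAU6* on XIV right (-0.59, adjusted p = 0.0163). The call at *ADH7* and *RDS1* was lost on leaving out any *sae2*Δ *tel1*Δ or *sae2*Δ replicate, *sae2*Δ *ndt80*Δ replicate 1 or 3 or *sae2*Δ *ndt80*Δ *tel1*Δ replicate 3, 4 or 5 (adjusted p from 0.0509 to 0.130). With the library series as a block its ratio was -0.23 (adjusted p = 0.494), and without the time-course libraries, which were all *ndt80*Δ, -0.12 (adjusted p = 0.684). The call was also lost with only the 2 genotypes compared, with library size from all nuclear reads and without the 3 replicates of high background (adjusted p from 0.0556 to 0.117). The call at *YNR075C-A* was lost without *sae2*Δ *tel1*Δ replicate 1 or 4.

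Hotspots higher with Ndt80 in *tel1*Δ cells lay on VI right and II right. Between *HXK1* and *YFR054C*, 14.4 kb from the tip, *sae2*Δ *tel1*Δ replicates had 838, 729, 754 and 617 NormHpM and *sae2*Δ *ndt80*Δ *tel1*Δ cultures 472, 415, 468, 723 and 469. The *TEL1* genotypes had 641, 642, 568, 573 and 596 among *sae2*Δ replicates and 536, 515, 682 and 424 among *sae2*Δ *ndt80*Δ replicates. *sae2*Δ *ndt80*Δ *tel1*Δ replicate 4 lay apart from the others and within the *sae2*Δ *tel1*Δ range. The ratio was 0.52 ± 0.17 (adjusted p = 0.0219) in *tel1*Δ cells and 0.10 ± 0.17 (adjusted p = 0.771) in *TEL1* cells. It was lost without *sae2*Δ *tel1*Δ replicate 1 or 3 or *sae2*Δ *ndt80*Δ *tel1*Δ replicate 2 or 3. Between the coatomer gene *RET2* and the proteasome lid gene *RPN12*, 2 adjacent hotspots had ratios of 1.26 ± 0.36 (adjusted p = 0.0108) and 0.80 ± 0.25 (adjusted p = 0.0186) in *tel1*Δ cells, the second lost without *sae2*Δ *tel1*Δ replicate 3. At *MAL31* and *MAL32* the ratio was 0.57 ± 0.20 (adjusted p = 0.041), lost without *sae2*Δ *tel1*Δ replicate 2 or 3, *sae2*Δ *ndt80*Δ *tel1*Δ replicate 1, 2, 3 or 5 or *sae2*Δ replicate 2, 3 or 7.

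Some strong end hotspots passed no test. Near *YER188C-A* on V right, 6.26 kb from the tip, means were 532 ± 77.8, 506 ± 178, 569 ± 62.1 and 370.4 ± 151 NormHpM, and adjusted p ran from 0.105 to 0.803 over the 4 comparisons. Between *YFL064C* and *COS4* on VI left, 4.32 kb from the tip, they were 189.9 ± 37.3, 274 ± 92.0, 242 ± 72.7 and 250.2 ± 90.7. In the control these 2 hotspots held 6.37 and 6.08 times background. Hotspots at the very tips of IX left and X left, over *YIL177C* and *YJL225C*, held 7.10 and 7.07 times background in the control, and their means stayed between 1.22 and 32.4 NormHpM once that was taken into account. At 20 of the 55 hotspots no comparison was called.

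Gene families of the ends carried little signal outside these sites. Members in the last 20 kb numbered 11 of 12 *COS* genes, 19 of 30 *PAU*, 8 of 11 *MAL* and *IMA*, 6 of 6 *AAD*, 5 of 17 *HXT* (hexose transporters), 5 of 7 *SNO* and *SNZ*, 4 of 16 *THI*, 1 of 6 *FLO*, 1 of 3 *IMD* and 8 of 8 *YRF1*. In windows over these genes the median control-scaled level ran from -9.51 (*THI* among *sae2*Δ *ndt80*Δ replicates) to 12.6 NormHpM (*IMD* among *sae2*Δ *ndt80*Δ replicates), against a genome mean of 87.6. Of the families, *MAL* and *IMA* had 1 window above that mean (197) and *PAU* 1 (92.5), and the others had none. All 3 *IMD* windows were above 2 times background in the control.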

How the data were processed

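CC-seq counts of 21 libraries were used. The authors aligned the reads (TermMapper, which runs Bowtie2) to SacCer3H4L2, a form of R64 (Cer3) that holds *HIS4*::*LEU2* and *leu2*::*hisG*. They deposited raw counts of Read 1 ends at each base on each strand. A mapping-quality filter and a duplicate step are not given in the sources used here. The inserts add 4247 bp, so genes of the right end of chromosome III were shifted by that length. The control holds 2 maps in sequence, of which the first was used. Repeat libraries of 1 number and different letters (7B and 7C, 1A and 1B) were summed.

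Hotspots followed the methods, with Hann smoothing, a threshold of 0.193 HpM, at least 25 bp and 25 reads, gaps under 200 bp merged, and the rDNA (451640 to 467844 on chromosome XII) left out. Background came from 47 ORFs over 5.5 kb, without Y′ genes and *TEL1*. The quasi-likelihood functions of edgeR 4.0.16 (R 4.3.3) were applied to the counts after filterByExpr, with 18 replicates in 1 model, hotspot reads as library size, and Benjamini-Hochberg adjustment over all 11980 windows, 612 bins or 3291 hotspots tested (threshold 0.05). DESeq2 1.42.0, with its own size factors in place of hotspot reads, was an alternative. The tests were run on simulated counts, drawn from a shared rate per feature apart from set changes. Library background did not differ there, so that run does not cover the uneven background of these libraries. The closing section gives the effect of the other alternatives. Other steps used Python 3.11.15 (pandas 2.3.3, numpy 2.4.6, matplotlib 3.10.9, scipy 1.17.1). Gene names came from the RefSeq table of R64.

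Windows were named as the 10 strongest by flat NormHpM, up to 3 called in each direction per comparison with at least 40 NormHpM and replicates that do not overlap, and the 5 highest in the control. Ends were named as those called and the strongest and weakest 3. A limit on repeated 75-base words was part of the rule and could not be applied without a genome. Hotspots were described after their values were seen. The members, lists, tests and alternatives were chosen with earlier results of these data known.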

Additional observations from a re-analysis of the deposited data

Results flagged for a closer look

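The first results stood out by 1 replicate lying far from the others of its genotype (Dixon's criterion at 95%), which 13 of 172 groups did (7.56%), where chance gives about 1 in 20. At VI right *sae2*Δ replicate 2 had 1868 NormHpM, above the other *sae2*Δ replicates. At XII right 1 *sae2*Δ *tel1*Δ replicate had 374, above the others. At *MIX23* 1 *sae2*Δ *tel1*Δ replicate had 0.377, below the others.

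In *sae2*Δ *ndt80*Δ *tel1*Δ, 1 replicate stood apart at *GEX1* and *VBA3* (61.7), within *ADH7* (12.1), between *ADH7* and *RDS1* (66.7, replicate 5), in both hotspots between *RET2* and *RPN12* (101.6 and 49.8, replicate 4), between *HXK1* and *YFR054C* (723, replicate 4) and at *COS9* (80.4, replicate 5). In *sae2*Δ *ndt80*Δ replicate 4 had 166 between *ADH7* and *RDS1*. Between *YJL225C* and *PAU1*, *sae2*Δ replicate 7 had 163 and *sae2*Δ *tel1*Δ replicate 3 had 140.4. *sae2*Δ *ndt80*Δ *tel1*Δ replicate 4 has a background of 111 NormHpM per kb and replicate 5 one of 2.56, the highest and the lowest of that genotype, and both belong to the time-course series. The part of either in these values was not tested.

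The ratio with over without Ndt80 differed between *tel1*Δ and *TEL1* cells at 2 ends, by a log2 difference of 1.80 at IX left and 1.84 at X left (adjusted p = 0.0180 and 0.0159, edgeR). Both differences lost the call once library background was subtracted (adjusted p = 0.180 and 0.161).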

How the results depend on the processing

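Counts of called windows, ends and hotspots at the chromosome ends are given here where they moved by over 1.5 times. A stands for Ndt80 in *TEL1* cells, B for Ndt80 in *tel1*Δ cells, C for Tel1 in *NDT80* cells, D for Tel1 in *ndt80*Δ cells and E for the difference between B and A. The reported counts, A to E, were 0, 0, 9, 11 and 0 windows, 0, 0, 1, 2 and 2 ends, and 0, 9, 20, 26 and 0 hotspots. With DESeq2, 16 (B) and 7 (D) windows, 2 (C), 1 (D) and 0 (E) ends and 1 (A), 15 (B) and 1 (E) hotspots were called. With TMM factors, 5 (C) and 1 (D) windows and 2 (C), 1 (D) and 0 (E) ends were called. With control-scaled background subtracted, 13 (B), 30 (C), 24 (D) and 1 (E) windows, 1 (B), 2 (C), 1 (D) and 0 (E) ends and 1 (E) hotspots were called. With every library as its own replicate, 3 (A) and 1 (B) windows and 0 (D) ends were called. With library background subtracted, 12 (B), 25 (C) and 28 (D) windows and 0 (E) ends were called. With the library series as a block, 1 (A), 5 (B), 25 (D) and 14 (E) windows and 21 (B) and 6 (E) hotspots were called. With nuclear reads outside the rDNA as library size, 4 (B) and 17 (D) windows, 0 (D) and 0 (E) ends and 5 (B) and 17 (D) hotspots were called. With only the 2 genotypes compared in the fit, 29 (A), 8 (B) and 502 (C) windows, 29 (C) and 0 (D) ends and 41 (C) and 16 (D) hotspots were called. With the replicate block, 10 (B), 33 (D) and 10 (E) windows and 0 (C), 1 (D) and 0 (E) ends were called. Without windows over 2 or under 0.5 times background in the control, 1 (A) and 1 (B) windows, 0 (D) and 0 (E) ends and 16 (D) hotspots were called. Without the 3 replicates of high background, 163 (B) and 32 (C) windows, 32 (B), 5 (C), 0 (D) and 1 (E) ends and 25 (B) hotspots were called. Without the time-course series, 489 (A), 473 (B), 61 (C), 550 (D) and 571 (E) windows, 30 (A), 28 (B), 5 (C), 32 (D) and 32 (E) ends and 13 (A), 35 (B), 39 (C) and 26 (E) hotspots were called. The causes were not tested.

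Leaving out single replicates gave 0 to 37 (A), 0 to 37 (B), 5 to 29 (C), 5 to 129 (D) and 0 to 501 (E) windows, 0 to 17, 0 to 14, 0 to 3, 0 to 29 and 0 to 32 ends, and 0 to 0, 5 to 21, 16 to 23, 20 to 35 and 0 to 14 hotspots. The highest counts of B, D and E came on dropping *sae2*Δ *ndt80*Δ *tel1*Δ replicate 4. Those of A for windows and ends came on dropping *sae2*Δ *ndt80*Δ replicate 4. The Tel1 ratios of the IX left and X left ends in *ndt80*Δ cells changed sign without the 3 replicates of high background (-0.0555 and -0.0478).

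Differences in the flat share of the last 20 kb were 0.171, 0.0346, 0.235 and 0.0990 percentage points (A to D, with minus without the protein). These flat differences ran over 0.0363 to 0.298, -0.0578 to 0.150, 0.120 to 0.328 and -0.0277 to 0.234 when replicates were left out, and came to 0.461 (C) and 0.530 (D) for the last 30 kb. As a share of all nuclear reads, with no background subtracted, the differences were -0.584, 0.601, -0.520 and 0.664. Of 55 hotspot calls, 29 held in every alternative in which they were fitted, and none changed sign. The run without hotspots over 2 or under 0.5 times background in the control covered 40 of these calls. That without end hotspots in gene families covered 46. Library size from all nuclear reads ended 20 of the 55 calls, comparing only 2 genotypes 12, and the replicate block 9. That block also ended the window calls for Tel1 in *NDT80* cells at the eighth kb of VI right (adjusted p = 0.128) and the eleventh kb of II left (adjusted p = 0.0824). Replicate numbers were not used as pairs in the main fit. Correlations of same-numbered deviations ran from -0.321 to 0.801. Their means (A to D) were -0.0702, 0.152, 0.155 and 0.293, against 0.00407, -0.0379, -0.0274 and -0.0536 for unlike numbers. Whether equal numbers mark shared conditions was not tested. The alternatives that count repeated 75-base words were not run, as no genome was used here. Where background made up most of the end reads, depth sets a limit, and a missing call does not show that genotypes were alike. Control-scaled background, the hotspot level and leaving out the 3 replicates of high background were chosen after seeing the data.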

Other observations

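Strand balance was looked at across the ends, and no comparison uses it. In the first kb from the tip, 57.5% of the reads of all Spo11-active libraries at the 16 left ends were on the Watson strand and 32.2% of those at the 16 right ends. In the control these shares were 55.1% and 40.8%. In the second kb they were 48.6% and 47.1%, and in the control 47.7% and 49.9%.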
